A study of Caenorhabditis elegans with 2 samples.

Results

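The 7 genes described here encode parts of the RNA exosome and nuclear RNA exonucleases of the nematode Caenorhabditis elegans. They are exos-1, exos-2, exos-3, exos-9, dis-3, mtr-4 and xrn-2, 7 of the 19985 protein-coding genes of the annotation, and they were listed because ZTF-7 was reported to act with nucleolar exosome ribonucleases. The question was where, if anywhere, regions recovered with ZTF-7 lay at the 5' ends of these genes. ZTF-7 is a zinc-finger protein, and the DNA recovered with it was mapped by ChIP-seq. In this method, DNA crosslinked to a tagged protein is recovered with an antibody and sequenced. ZTF-7 was tagged with eGFP and came from the transgene wgIs332 in strain OP332, which is mutant for unc-119 (allele tm4063, chromosome III). Whole L4 larvae gave 2 biological replicates of 1 group, so all tissues of the animal are mixed. No control sample was analysed here, the number of reads is unknown, and no comparison of conditions or test was possible.

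The RNA exosome is a barrel of RNase PH-like subunits closed by a cap of RNA-binding subunits, through which RNA is threaded in the 3' to 5' direction to a catalytic exonuclease at the far end. In the nucleus the helicase MTR4 unwinds substrates for it, and in the nucleolus it trims precursors of ribosomal and small nucleolar RNA. XRN2 degrades RNA from the 5' end and acts in transcription termination, ribosomal RNA maturation and, in C. elegans, microRNA turnover. Many C. elegans genes lie in operons, in which closely spaced genes on the same strand are transcribed from a promoter upstream of the first gene.

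Each region had a summit, and each of 4 lists was searched for summits within 1000 bp of a gene's annotated 5' end. The IDR list held 1311 peaks that passed the authors' irreproducible discovery rate threshold. The pooled list and the lists of replicate 1 and replicate 2 held 30000 regions each, a fixed number that takes in background, so a region there means little without its rank. Ranks run from 1, the highest signal, and signal compares only within a list. Its median was 66.4 in the IDR list, 13.97 in the pooled list, 4.84 in replicate 1 and 11.8 in replicate 2.

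Of the 7 genes, exos-3 alone had an IDR summit within 1000 bp (1 of 7, 14.3%), against 5.61% of all protein-coding genes. In the pooled list exos-3, exos-9 and xrn-2 had one (3 of 7, 42.9%), against 40.2% of all protein-coding genes. Replicate 1 had a summit at 5 of 7 (exos-1, exos-2, exos-3, exos-9 and xrn-2), against 47.3% of coding genes. Replicate 2 had one at 3 of 7 (exos-2, exos-3 and exos-9), against 40.8%, and the same 3 genes had one in both replicates, against 30.6%. Counting only replicate 1 regions that a replicate 2 region overlapped, 2 of 7 had one (exos-3 and exos-9), against 25.9%. With 7 genes, 1 gene moves a share by 14.3 percentage points, and in every list other than replicate 1 the count lay within 1 gene of the share for all coding genes. No list had a summit within 1000 bp of dis-3 or mtr-4.

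**Figure D1:**
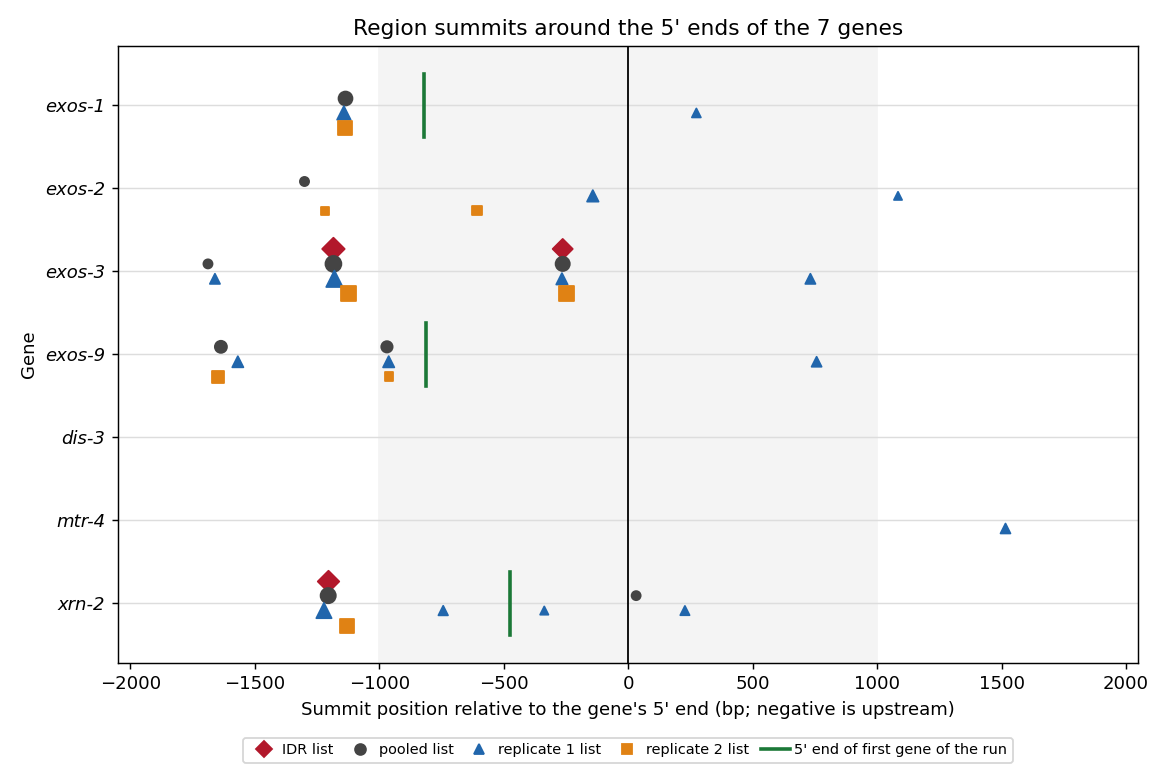
Summits of the IDR (red diamonds), pooled (grey circles), replicate 1 (blue triangles) and replicate 2 (orange squares) lists within 2000 bp of the 5' end of each gene, with larger markers for stronger ranks and the 1000 bp window shaded. The strongest regions of exos-1, exos-3 and xrn-2 lie between 1122 and 1222 bp upstream, outside the window, and green lines mark the 5' end of the first gene where a gene follows others closely.

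The cap subunit EXOS-3, the homologue of RRP40, had the only IDR peak inside the window. Its gene lies on chromosome I from 10518379 to 10519258 on the plus strand (build ce11, coordinates counted from 1), and the peak, from 10517954 to 10518277, is intergenic. The summit was 263 bp upstream of exos-3, with a signal of 52.7 and rank 1112 in the IDR and pooled lists. Replicate 1 placed its summit 266 bp upstream with a signal of 9.07 and rank 6358, and replicate 2 placed it 249 bp upstream with a signal of 40.3 and rank 698. The replicates thus placed the peak almost alike, while its rank in replicate 1 was 9.11 times that in replicate 2. A difference of 5 times or more in this direction was present at 168 of the 1279 IDR peaks found in both replicates (13.1%), and in the other direction at 118 (9.23%). Among the 1311 strongest regions of replicate 1 alone, 0 of the 7 genes had a summit within 1000 bp, beside 5.13% of all coding genes. The same number of regions from replicate 2 alone gave 1 of 7, exos-3, beside 5.42%.

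The exos-3 summit was nearer to another gene. It lay 61 bp upstream of nlp-4, which is transcribed away from exos-3 on the other strand, with 323 bp between the genes. Given only to the nearest protein-coding 5' end, the peak counted for nlp-4 and 0 of the 7 genes had an IDR summit. A second IDR peak lay 1184 bp upstream of exos-3, from 10517033 to 10517356, with a signal of 89.2 and rank 317. In replicate 1 this peak had a signal of 47.7 and rank 227, and in replicate 2 a signal of 43.9 and rank 552. It was stronger than the nearer peak in all 4 lists and lay 45 bp upstream of F59C6.15, a small nucleolar RNA gene, and 767 bp upstream of the coding gene F59C6.18. Replicate 1 also had a region in the coding sequence of exos-3, 732 bp downstream of the 5' end, with a signal of 5.71 and rank 12176.

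The cap subunit EXOS-2, the homologue of RRP4, had regions in the 2 replicates at different places. Its gene lies on chromosome IV from 6415478 to 6417460 on the plus strand, and its nearest upstream neighbour, nlp-71, starts 1895 bp away and is transcribed the other way. Replicate 1 had a summit 142 bp upstream of exos-2 with a signal of 9.47, rank 5979 and a −log10 q of 2.41. That list's ceiling was 2.77, a value shared by 5014 of its 30000 regions. Replicate 2 had a summit 607 bp upstream with a signal of 10.9, rank 17415 and a −log10 q of 0.294. These regions did not overlap, although exos-2 counts among the genes with a summit in both lists. The pooled list had a summit 1301 bp upstream of exos-2 and 595 bp upstream of nlp-71, with a signal of 11.9 and rank 19264, and the nearest IDR peak was 65696 bp away.

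The cap subunit EXOS-1, the homologue of CSL4, had no pooled or replicate 2 summit within 1000 bp. Replicate 1 had one in its coding sequence, 274 bp downstream of the 5' end, with a signal of 3.64 and rank 20994. The gene lies on chromosome III from 11009043 to 11010588 on the plus strand. It begins 113 bp after the end of Y48A6B.3, a gene on the same strand for a protein like subunit 2 of the H/ACA ribonucleoprotein, which guides pseudouridylation of ribosomal RNA. A pooled region from 11007744 to 11008067 had its summit 1137 bp upstream of exos-1 and 316 bp upstream of Y48A6B.3. Its signal was 48.7 and its rank 1340, which is 29 ranks below the weakest IDR peak, at 49.2 and rank 1311. Its −log10 q of 2.11 was the pooled list's ceiling, a value that 1495 regions of that list had. All 1311 IDR peaks had it too. Both replicates held this region, replicate 1 at 19.9 and rank 1770 and replicate 2 at 26.8 and rank 2116, with summits 1142 bp and 1137 bp upstream of exos-1. The same summit lay 304 bp upstream of fipr-17 on the other strand.

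The barrel subunit EXOS-9, the homologue of RRP45, had a pooled summit 969 bp upstream, just inside the window. Its gene lies on chromosome III from 7196224 to 7198073 on the minus strand and begins 77 bp after the end of pfd-5, a gene for a putative subunit of prefoldin, which hands unfolded actin and tubulin to the chaperonin. The region, from 7198880 to 7199203, had a pooled signal of 22.0 and rank 6473, and its summit was 158 bp upstream of pfd-5. In replicate 1 it had a signal of 8.55 and rank 6937, against 8.72 and rank 24492 in replicate 2. A stronger pooled region lay 1636 bp upstream of exos-9, at a signal of 27.2 and rank 4280, with rank 7521 in replicate 1 and rank 5185 in replicate 2. Replicate 1 had a further region in an exos-9 intron, 757 bp downstream, at rank 13241. The nearest IDR peak was 10075 bp away.

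Just inside and just outside the window, the pooled summit of exos-9 at 969 bp counted, while those of exos-1 at 1137 bp, exos-3 at 1184 bp and xrn-2 at 1205 bp did not. Those outside had signals of 48.7, 89.2 and 71.2, and the one inside had 22.0. Pooled summits farther from the edge of the window did not all follow this order. Inside, exos-3 at 263 bp had 52.7 and xrn-2 at 32 bp had 11.6. Outside, exos-2 at 1301 bp had 11.9, exos-9 at 1636 bp had 27.2 and exos-3 at 1688 bp had 11.7.

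DIS-3, the homologue of the catalytic subunit RRP44, had no summit within 2000 bp of its 5' end in any of the 4 lists. Its gene lies on chromosome IV from 10097202 to 10106523 on the plus strand, and msp-36, on the same strand, ends 1385 bp upstream. The nearest pooled summit was 8365 bp downstream in an intron of dis-3, with a signal of 10.9 and rank 21945, and replicate 2 had one 8367 bp downstream at rank 21219. The nearest replicate 1 summit was 3843 bp downstream in a coding exon, at rank 22194. All these ranks are in the weaker part of their lists, and the nearest IDR peak was 187556 bp away.

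MTR-4, the helicase that feeds the nuclear exosome, likewise had no summit within 1000 bp. Its gene lies on chromosome IV from 9825694 to 9830620 on the plus strand, and catp-6, transcribed the other way, starts 1113 bp upstream. Replicate 1 had a region in an mtr-4 coding exon, 1512 bp downstream of the 5' end, with a signal of 5.21 and rank 13641. The nearest summits elsewhere were 20681 bp upstream in the pooled list, 15371 bp upstream in replicate 2 and 107083 bp upstream in the IDR list. For dis-3 and mtr-4, then, no region was listed at the 5' end, and without read counts a weak signal there could not be told from none.

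XRN-2, the nuclear 5' to 3' exonuclease, had weak regions at its own 5' end and a strong one beyond the gene before it. The gene lies on chromosome II from 14155768 to 14166030 on the plus strand and begins 198 bp after the end of rpl-43, a gene for ribosomal protein eL43 on the same strand. The pooled summit within the window was 32 bp downstream in a coding exon, with a signal of 11.6, rank 20191 and a −log10 q of 0.234. Replicate 1 had 3 summits in the window, 743 and 337 bp upstream and 228 bp downstream, at ranks 16352, 28197 and 18417. Replicate 2 had 0 there. The IDR peak lay from 14154401 to 14154724, with its summit 1205 bp upstream of xrn-2, 731 bp upstream of rpl-43 and 190 bp upstream of Y48B6A.1 on the other strand. Y48B6A.1 encodes the homologue of BOP1, a nucleolar protein needed for maturation of the large ribosomal subunit. This peak had a signal of 71.2 and rank 545. Replicate 1 gave it a signal of 34.9 and rank 528, and replicate 2 a signal of 42.1 and rank 629, so the replicates ranked it alike, with a ratio of 0.839. Ranks within 1.5 times of each other were found at 309 of the 1279 IDR peaks (24.2%).

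**Figure D2:**
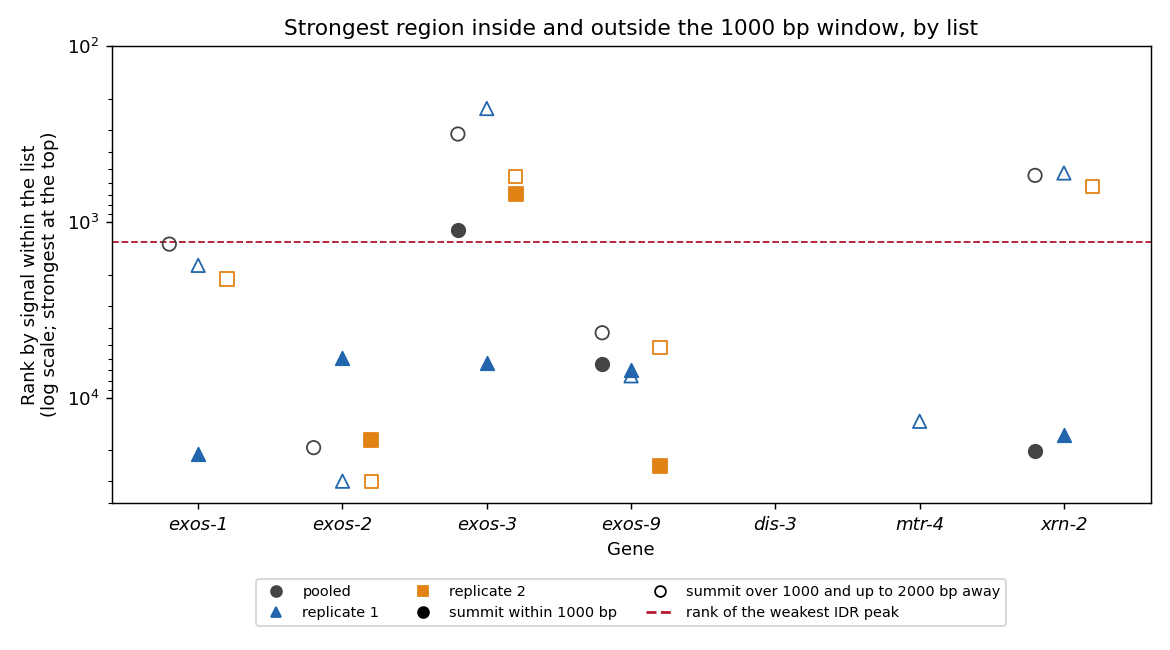
Rank by signal (log scale, strongest at the top) of each gene's strongest region inside the 1000 bp window (filled) and of its strongest region beyond it, up to 2000 bp away (open), in the pooled, replicate 1 and replicate 2 lists. The dashed line is the rank of the weakest IDR peak, 1311. Where a list has both symbols, the open one is the stronger at exos-1, exos-3 and xrn-2, and at exos-9 in the pooled and replicate 2 lists, but not at exos-2 or at exos-9 in replicate 1. No symbol stands at dis-3.

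**Figure D3:**
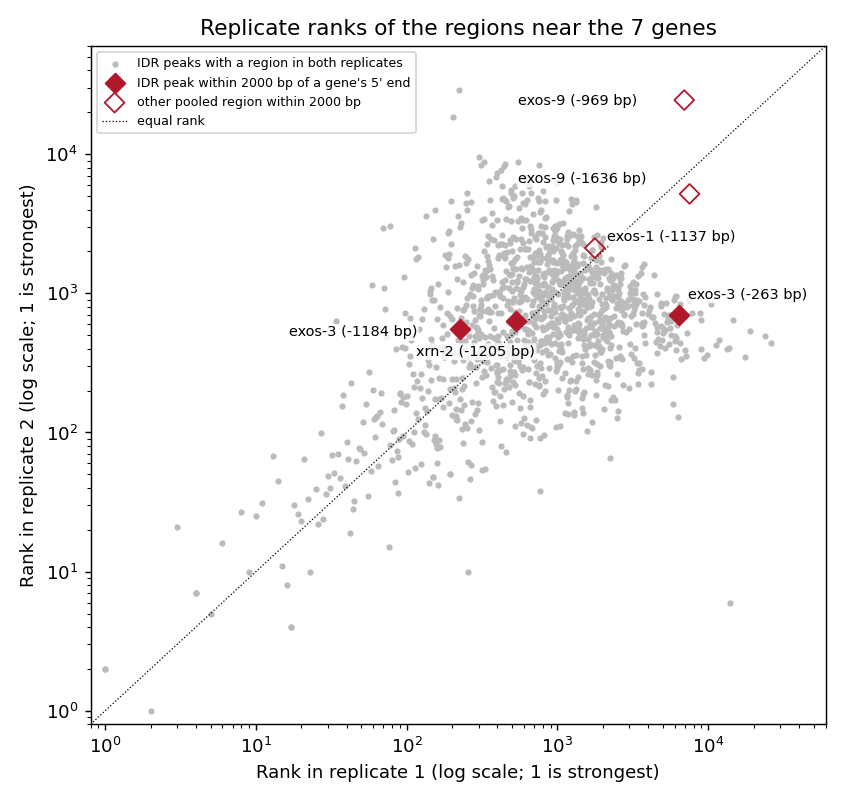
Rank in replicate 2 against rank in replicate 1 (both log scale, 1 strongest) for the 1279 IDR peaks found in both replicates (grey) and for the pooled regions within 2000 bp of the 7 genes that both replicates overlap (red; filled for IDR peaks). The xrn-2 peak lies next to the line of equal ranks, and the exos-3 peak at 263 bp lies to its right, at rank 6358 in replicate 1 and 698 in replicate 2.

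Of the 7 genes, 3 (exos-1, exos-9 and xrn-2) follow another gene on the same strand within 300 bp, and their strongest regions lay upstream of that gene. Such an arrangement, called a run here, was defined by spacing alone after the values had been seen, and the annotation used does not mark operons. Genes on the same strand that overlap in part also formed a run. These 3 of 7 make 42.9%, beside 14.7% of all coding genes that follow another in a run. When a summit within 1000 bp of the first gene of the run also counted, 2 of 7 genes had an IDR summit (exos-3 and xrn-2), against 7.23% of all coding genes. In the pooled list 4 of 7 did (exos-1, exos-3, exos-9 and xrn-2), against 42.9% of all coding genes. With gaps of at most 150 bp in a run, xrn-2 was no longer in one and the IDR count was 1. Across the genome, 12.5% of the 2936 coding genes that follow another in a run had an IDR summit at the start of the run, and 3.61% had one at their own 5' end. Single and first genes had one in 5.95% of 17049 cases.

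The sequences under 4 of these summits are printed because they show the DNA of listed regions upstream of xrn-2, exos-1, exos-9 and exos-2. Only the xrn-2 region is an IDR peak, and the other 3 come from lists that take in background. The exos-2 region was listed in replicate 1 alone. Each stretch is 201 bases of the RefSeq copy of WBcel235, the summit at base 101, read 5′ to 3′ on the strand of the gene. Capitals mark TGCGTC and CGCGC on either strand, which were chosen after these stretches had been read. The xrn-2 stretch is the IDR peak beyond rpl-43 (chrII:14154463-14154663, plus strand), and the exos-1 stretch is the region beyond Y48A6B.3 (chrIII:11007806-11008006, plus strand). The exos-9 stretch is the region beyond pfd-5 (chrIII:7198942-7199142, minus strand), and the exos-2 stretch is the replicate 1 region next to the gene (chrIV:6415236-6415436, plus strand).
xrn-2: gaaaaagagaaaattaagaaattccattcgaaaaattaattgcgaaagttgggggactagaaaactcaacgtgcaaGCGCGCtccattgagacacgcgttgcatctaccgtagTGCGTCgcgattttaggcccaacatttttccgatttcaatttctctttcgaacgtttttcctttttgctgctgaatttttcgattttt
exos-1: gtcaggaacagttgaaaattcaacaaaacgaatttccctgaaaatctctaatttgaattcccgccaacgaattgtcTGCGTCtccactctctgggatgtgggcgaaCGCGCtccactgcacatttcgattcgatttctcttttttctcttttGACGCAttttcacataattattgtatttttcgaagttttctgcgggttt
exos-9: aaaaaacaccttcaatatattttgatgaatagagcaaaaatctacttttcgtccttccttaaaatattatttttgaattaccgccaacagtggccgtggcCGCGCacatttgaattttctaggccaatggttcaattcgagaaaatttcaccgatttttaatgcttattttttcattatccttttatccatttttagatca
exos-2: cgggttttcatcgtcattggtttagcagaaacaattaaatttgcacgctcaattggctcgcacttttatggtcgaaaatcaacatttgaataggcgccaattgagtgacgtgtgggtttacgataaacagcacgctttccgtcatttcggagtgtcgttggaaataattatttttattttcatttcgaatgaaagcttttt

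TGCGTC was present in 2 of the 4 printed stretches, once upstream of xrn-2, from base 114, and at 2 places upstream of exos-1, from bases 77 and 153. It was absent from the exos-9 and exos-2 stretches and from the 201 bases around the exos-3 summit at 263 bp, which outranks the exos-1 region, and around the stronger exos-3 summit at 1184 bp. Among windows of the same length it was found at 22.6% of IDR summits, against 5.41% of the other pooled summits and 6.11% of the 201 bases ending at coding 5' ends. CGCGC was present in the xrn-2, exos-1 and exos-9 stretches, in exos-9 from base 101, and at 1 place around the exos-3 summit at 1184 bp. It was absent from the exos-2 stretch and from the exos-3 summit at 263 bp. It was found at 29.5% of IDR summits, against 7.73% of the other pooled summits and 10.3% of the stretches ending at coding 5' ends. GC content was 39.3% in the xrn-2 stretch, 40.3% in exos-1, 31.8% in exos-9 and 37.8% in exos-2, beside a median of 41.3% at IDR summits. Both words are rich in G and C, and the part of base composition in these shares was not tested.

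The promoters themselves were also read, as 300 bases from 250 before the 5' end to 50 after it, for the 6 genes other than exos-3, which is left out because sequence from its chromosome is not reported here. The splice acceptor word TTTCAG, on either strand, was in 4 of 6 (exos-1, exos-2, exos-9 and mtr-4), beside 51.7% of all coding windows. TATAAA was in 2 of 6 (mtr-4 and xrn-2), beside 38% of all coding windows, and GAGAGA in 1 (xrn-2), beside 21.8%. TTTTTT was in 5 of 6, beside 80.1%, and CCGCCC in 0, beside 7.83%. The shorter windows of 201 bases at IDR summits held TTTCAG in 16.8%, TATAAA in 15.5%, GAGAGA in 35.9%, TTTTTT in 52.9% and CCGCCC in 8.85%. Over all 7 genes the GC content of this window ran between 29.7% (exos-3) and 37.7% (xrn-2), around the median of 34.3% for coding genes.

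For the remaining exosome subunits, 6 of 8 symbols listed were in the annotation (exos-4.1, exos-4.2, exos-7, exos-8, crn-3 and crn-5). An IDR or a replicate 2 summit within 1000 bp was present at 0 of 6, beside 5.61% and 40.8% of all coding genes. In the pooled list 1 of 6 had one, exos-7, with a signal of 12.7 and rank 17452, beside 40.2% of all coding genes. Replicate 1 had one at 4 of 6, beside 47.3%. All 6 come after another coding gene in a run, as defined above, in which genes may overlap. Counting the first gene of the run raised the pooled count to 2 of 6, beside 42.9% of all coding genes. It left the IDR count at 0, beside 7.23%. The strongest region there was a replicate 1 region at rank 1628, which lay 113 bp upstream of tin-9.2, whose 5' end is 4 bp from that of exos-4.1, and which replicate 2 did not list.

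Other exonucleases and the cofactors of the exosome and of XRN enzymes had 0 IDR summits among 13 genes and a pooled summit at 8 (61.5%), beside 5.61% and 40.2% of all coding genes, and at 5.61% fewer than 1 of 13 genes would have an IDR summit. The strongest pooled regions were at disl-2, a relative of dis-3 (signal 38.3, rank 2154), and at ttc-37 (38.3, rank 2157) and skih-2 (30.3, rank 3486), which encode homologues of the cytoplasmic SKI complex. Nonsense-mediated decay genes also had 0 IDR summits among 9, with a pooled summit at 7 (77.8%), led by the helicase gene smg-2 (33.1, rank 2912), then smg-7 (32.4, rank 3033) and smg-8 (20.9, rank 7171). The replicates differed in these 9 genes. Replicate 2 had a summit at 6 (66.7%), beside 40.8% of all coding genes, and replicate 1 at 4 (44.4%), beside 47.3%, with none at smg-8. Both replicates had one at 2 (22.2%), beside 30.6%. Of the deadenylation and decapping genes, 5 of 24 (20.8%) had an IDR summit, beside the 5.61% of all coding genes given above. They were the CCR4-NOT genes ntl-11 (88.6, rank 326) and ntl-2 (68.8, rank 605), the LSM ring genes lsm-3 (77.7, rank 453) and lsm-7 (50.1, rank 1254), and the PAN complex gene panl-3 (57.1, rank 929). The lsm-3 summit lay 919 bp from lsm-3 and 40 bp upstream of Y62E10A.23, the first gene of its run, and did not count within 500 bp. Of 31 nucleolar ribosome biogenesis symbols listed, 25 were in the annotation, and bop-1 was among those not found. Y48B6A.1, the gene for the BOP1 homologue, had an IDR summit 190 bp upstream and was not counted in this list. Of the 25 genes found, 5 (20%) had an IDR summit. They were rbd-1 (87.0, rank 343), the box C/D ribonucleoprotein genes nol-56 (74.9, rank 492) and nol-58 (69.5, rank 589), nol-10 (65.7, rank 678) and pro-1 (54.2, rank 1050). Over these 76 other genes, 10 had an IDR summit (13.2%) and of these only lsm-7 ranked below the exos-3 peak at rank 1112. Support from the replicates differed among these 10 genes. For rbd-1 the ranks were 499 in replicate 1 and 360 in replicate 2, and for ntl-11 527 and 257. Replicate 2 had no summit within 1000 bp of nol-10. The region of pro-1 was at rank 6016 in replicate 1, and that of panl-3 at rank 5547 in replicate 2.

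**Figure D4:**
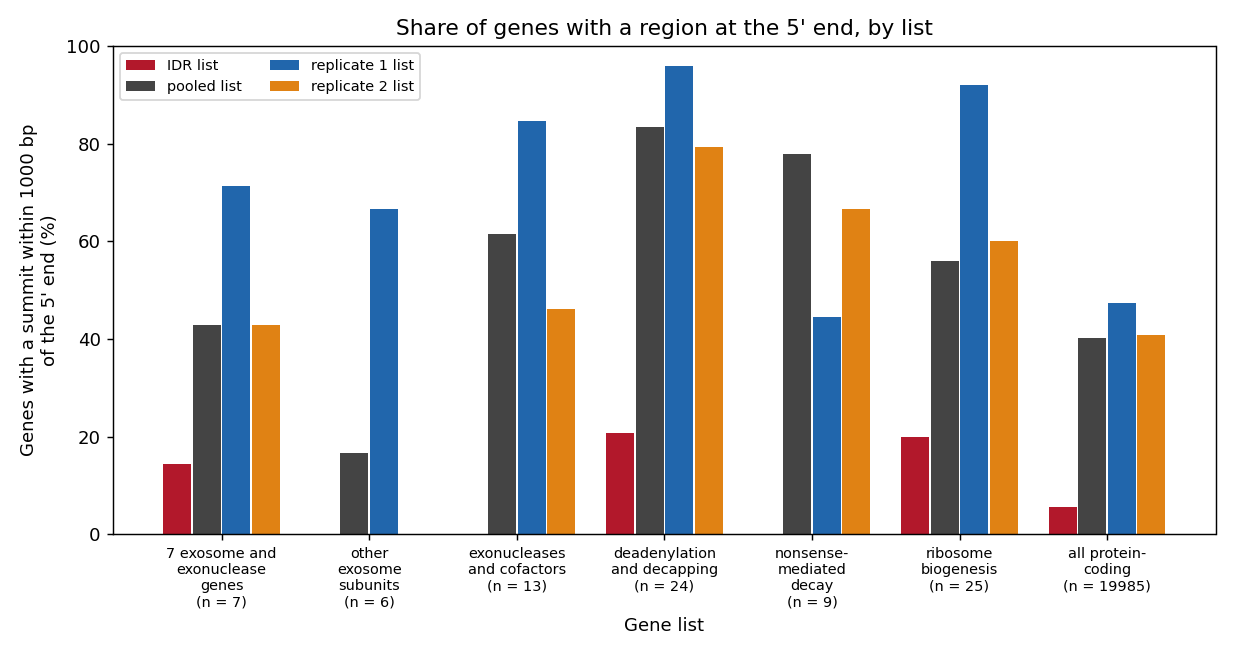
Percentage of genes whose 5' end had a summit within 1000 bp in the IDR, pooled, replicate 1 and replicate 2 lists (bars), for the 7 exosome and exonuclease genes, 5 other lists and all protein-coding genes. The IDR bar is 14.3% for the 7 genes, 20.8% for deadenylation and decapping, 20% for ribosome biogenesis and 5.61% for all coding genes, and 3 lists have none. Each of the 7 genes weighs 14.3 percentage points.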

How the data were processed

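The authors had processed the ChIP-seq reads of tagged ZTF-7 to region lists on build ce11. The labels also give a range of sizes from 150 to 350 bp. It does not hold for every listed region, since the IDR peak at ntl-11 runs only from 15471582 to 15471668. The deposited notes trace each region list to ChIP alignments and to 1 further file, and trace the IDR list to the 3 others. Aligner, peak caller, versions and IDR cutoff were not given in the sources used. The deposited signal is the peak caller's own value per region and compares only within a list, and the deposited −log10 q is tied at a ceiling, so regions were ranked by signal. Depth is unknown, and the 4 lists on ce10 were not used.

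Build ce11 is WBcel235, and 0 regions passed a chromosome end. Genes came from Ensembl release 115, products and sequence from RefSeq. A gene counted where its 5' end had a summit within 1000 bp, and a summit could count for several genes. The script was tested on simulated data. No test was run, since the series has 1 group. The 7 genes, the other lists (76 genes found of 86 symbol entries, a gene in 2 lists counting once) and the rule for named genes were chosen with earlier results of these data known. Named were the 7 genes, their upstream neighbours, genes sharing a summit with them, and in the other lists each gene with an IDR summit or, where a list had none, the 3 of highest pooled signal. The first genes of runs, the region beyond them and the 2 capitalised words were chosen after seeing the data. Alternatives were other distances, overlaps, 5' ends, assignments, stronger regions and each replicate alone. Python 3.11.15, numpy 2.4.6, pandas 2.3.3 and matplotlib 3.10.9 were used.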

Additional observations from a re-analysis of the deposited data

How the results depend on the processing

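With 7 genes each count is coarse, and the cause of the changes was not tested. Each count is followed by the share of all coding genes under the same setting. The IDR count of 1 became 2 within 2000 bp (7.96%), with run starts added (7.23%) and with gaps of 500 bp (7.47%). It became 0 with the nearest 5' end only (4.15%), with the upper 50% of peaks (2.91%), and with peaks among the 2622 strongest regions of each replicate (4.5%). The IDR list was not remade without a replicate. With the 1311 strongest regions of 1 replicate in its place, the count was 0 for replicate 1 (5.13%) and 1 for replicate 2 (5.42%). The pooled count of 3 became 5 within 2000 bp (49.5%), 1 with the nearest 5' end only (36.2%) and 1 among the 1311 strongest regions (5.61%). In place of the pooled list, the replicate 2 list gave 3 (40.8%) and the replicate 1 list 5 (47.3%), the counts already given. The replicate 1 count of 5 became 0 among its 1311 strongest regions (5.13%). The replicate 2 count of 3 became 1 within 500 bp (30.8%), 1 with the nearest 5' end only (36.8%) and 1 among the strongest regions (5.42%). It became 5 within 2000 bp (50.9%), with any base of the region (42.9%) or with run starts (43.5%). The count of 3 in both replicates became 1 within 500 bp (21.4%), 1 with the nearest 5' end only (26%) and 0 among the strongest regions (2.88%). It became 5 within 2000 bp (42.2%), with any base of the region (32.8%) or with run starts (34%), and 2 with overlapping replicate regions (25.9%). Among the other 76 genes the IDR count of 10 became 9 within 500 bp (4.35%) and 13 within 2000 bp (7.96%). Run starts, their gaps, overlapping replicate regions and the 2622 strongest regions were alternatives chosen after seeing the data. A gene without a listed region is not shown to lack signal, since depth is unknown. No paired analysis was possible because the series has 1 group.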
